A study of Mus musculus with 4 samples.

Results

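AP-1 and BATF transcription factors are dimeric DNA-binding proteins that carry signals of the T cell receptor to the genome. They were examined through 10 genes: Fos, Fosb, Fosl1 and Fosl2 of the FOS family, Jun, Junb and Jund of the JUN family, Batf and Batf3, and Bach1. The members were found by gene name, 1 row each, among the 53465 genes of a count table, and all 10 passed the filter on low counts that left 13528 genes for testing. The cells were mouse splenic CD8+ T cells held for 24 h with beads carrying antibodies to CD3 and CD28, which stand in for antigen and for costimulation. Of the 4 libraries, 2 carry the label wild type (WT) and 2 the label PP2Cm KO (knockout), with the same stimulation in all. PP2Cm, encoded by Ppm1k, is a mitochondrial phosphatase that promotes breakdown of branched-chain amino acids. The labels give no strain, age, sex or animal number, and do not say how the knockout allele was made or whether each replicate came from its own animal.

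The column codes and the sample titles name opposite genotypes, and the groups here follow the titles and the genotype field. Ppm1k itself did not follow the labels, with 102 and 94 counts in the WT-labelled pair and 157 and 206 in the KO-labelled pair. Its log2 fold change, KO label against WT label, was 0.97 (SE 0.23), and it did not pass over all genes (adjusted p = 0.186 by edgeR). Every direction is therefore given for the KO label against the WT label, and every sign would turn if the column codes held the genotype. The table has 1 count per gene, so the exons behind the Ppm1k reads are not visible. Library totals ran from 12967251 to 17316284 counts, at which a count of 0 allows at most 0.173 to 0.231 counts per 1000000 counts of the library (CPM), counting error alone. All 6 markers of CD8 T cells were present, with Cd8a between 511 and 547 CPM, while Cd4 stood between 3 and 10 CPM. The B cell marker sum was 420 and 363 CPM in the WT-labelled pair and 300 and 264 CPM in the KO-labelled pair, nearly all of it Ighm. The CD8 marker sum was 2122 and 1864 CPM against 1843 and 1795 CPM, the NK cell sum, mostly Eomes, 86.4 and 98.3 against 84.4 and 79.5 CPM, and the myeloid sum 3.38 to 9.24 CPM with overlapping labels. The part of these sums in the results was not tested.

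JUN proteins pair with each other or with FOS proteins through a leucine zipper, and the pair grips the AP-1 site with a basic region. FOS proteins cannot pair with themselves and depend on a JUN partner. BATF and BATF3 also pair with JUN proteins, lack the transactivation regions of FOS, and bind with IRF4 or IRF8 at composite elements. In CD8+ T cells BATF is known for its part in effector differentiation. BACH1 pairs with small MAF proteins and represses genes of haem handling and antioxidant defence. Fos and Jun are classical immediate-early genes, whose transcripts appear soon after stimulation and decay quickly.

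The stretch of the basic region that touches DNA shows what the 10 members share and where they part, so its 27 coding bases are given for each, from GENCODE M21 transcripts. Capitals mark the codons of the asparagine, the paired alanines, the cysteine or serine, and the arginine that define the bZIP signature.
Fos: AATaagatgGCTGCAgccaagTGCCGG
Fosb: AACaagctgGCTGCAgctaagTGCAGG
Fosl1: AACaagctaGCAGCTgctaagTGCAGA
Fosl2: AACaagctaGCTGCAgccaagTGTCGG
Jun: AACcgcattGCCGCCtccaagTGCCGG
Junb: AACaggctgGCGGCCaccaagTGCCGG
Jund: AACcgcatcGCCGCCtccaaaTGCCGC
Batf: AATcgcatcGCTGCCcagaagAGCCGA
Batf3: AACcgggttGCAGCTcagaggAGCCGG
Bach1: AACagaatcGCCGCGcaacgcTGTCGC
Each member held 1 such signature in its longest annotated coding sequence. Batf and Batf3 carry a serine codon at the capital pair that holds a cysteine codon in the FOS and JUN members and in Bach1. Of the 27 bases, 24 were identical between Jun and Jund, 23 between Fos and Fosb, 23 between Fosb and Fosl1, and 19 between Batf and Batf3. Bach1 was the most distant, with 12 bases shared with Fosb and 12 with Fosl1.

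Across the 10 members, none differed between the labels at an adjusted p under 0.05 by the quasi-likelihood test of edgeR, where 0.207% of all genes tested passed, and none was called by DESeq2, where 2.05% of all genes passed. At an unadjusted p under 0.05 there was 1 member, Fosl1, against 12.9% of all genes tested in either direction and 5.7% in its own. Log2 fold changes were above 0 in 6 members, where 48.1% of all genes were, and below 0 in 4, with a median of 0.05 beside −0.01 over all genes tested. The KO-labelled pair lay wholly above the WT-labelled pair in Fosl1 and Bach1 (2 members, where 21.5% of all genes did so) and below them in Fosl2 and Junb (2 members, where 23.3% did so). The labels overlapped in the other 6 members. Single values in 2 against 2 libraries cannot reach below 0.333 in a two-sided exact permutation test, so edgeR draws its estimate of spread from many genes at once. In these bulk samples, fewer cells that hold a transcript and less of it per cell cannot be told apart.

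**Figure D1:**
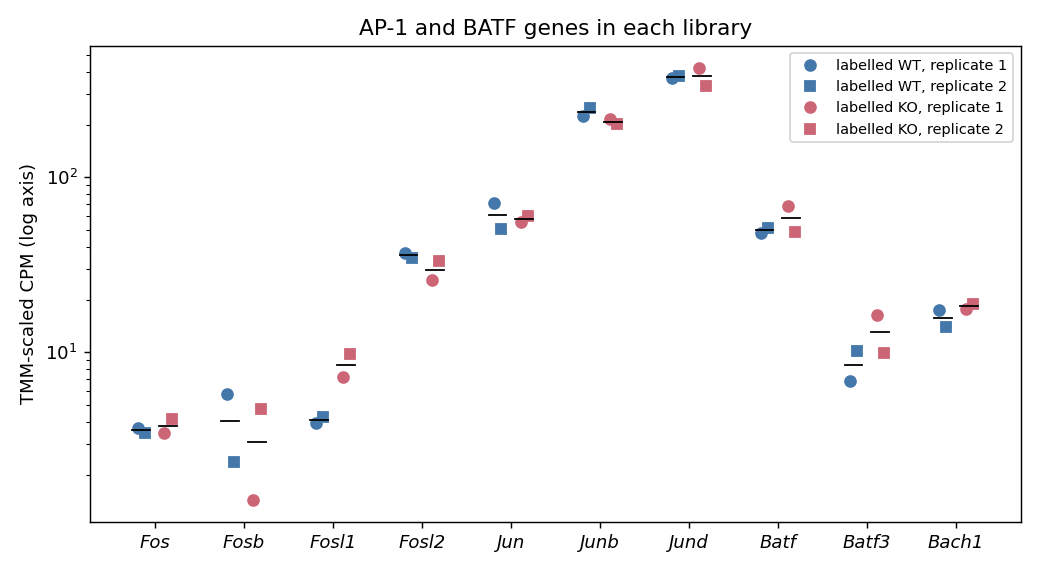
TMM-scaled CPM of each member (log axis) in the 2 libraries labelled WT (blue) and the 2 labelled KO (red), with circles for replicate 1, squares for replicate 2 and black lines for the means of 2. Jund, Junb, Jun and Batf fill the upper part of the range, and Fosl1 shows the clearest gap between the labels, from 4.24 to 7.22 CPM.

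Fosl1, which encodes FRA-1, a FOS protein without the transactivation region of FOS, had the largest difference of the members. It was counted 51 and 72 times in the WT-labelled pair and 96 and 141 in the KO-labelled pair. Scaled to depth these were 3.92 and 4.24 CPM against 7.22 and 9.76 CPM. The replicates thus lay within 1.08-fold of each other in the WT-labelled pair and within 1.35-fold in the KO-labelled pair, and the labels did not overlap. Mean levels were 4.08 ± 0.226 CPM against 8.49 ± 1.80 CPM (SD, n = 2 each), a 2.08-fold difference, with a log2 fold change of 1.06 (SE 0.25) and 95% limits of 0.47 and 1.64. The unadjusted p was 0.00382, and the adjusted p by edgeR was 0.177, so Fosl1 did not pass over all genes, nor in any of 12 alternatives, where the adjusted p ran from 0.104 to 0.725. By p it stood at place 293 of 13528 genes. The counts are low: Poisson intervals of 95% ran from 38.0 to 67.1 and from 56.3 to 90.7 counts in the WT-labelled pair, and from 77.8 to 117 and from 119 to 166 counts in the KO-labelled pair.

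Fosl1 lies on the forward strand of chromosome 19 in GRCm38, from 5447547 to 5455946 in GENCODE M21. The deposited position differs, from 5447703 to 5455945, so the Fosl1 exons that were counted may differ from those of GENCODE M21. In GENCODE M21, the gene Ccdc85b, on the opposite strand, shares 1163 exon bases with the 2033 bases of exon sequence of Fosl1. The sources used here do not say whether reads were counted by strand, so reads of both genes could be mixed. Ccdc85b stood at 18.9 and 28.3 CPM in the WT-labelled pair and 26.1 and 19.0 CPM in the KO-labelled pair, with a log2 fold change of −0.07 (SE 0.25). Ccdc85b thus held more counts than Fosl1 in every library, and the part of its reads in the Fosl1 values was not tested. Among the markers of other cells, the sum of 5 genes of CD4 and regulatory T cells was higher in both libraries labelled KO (46.7 and 40.9 CPM) than in both labelled WT (39.0 and 38.2 CPM), with none of the 5 at 0. Of the 5 genes, 3 were higher in both libraries labelled KO and 1 was lower in both. The higher ones were Cd4, at 2.996 and 4.709 CPM in the WT-labelled pair against 10 and 5.122 CPM, Foxp3 and Cd40lg. Foxp3 stood at 1.229 and 0.7064 CPM against 2.331 and 1.315 CPM. Cd40lg stood at 0.9988 and 1.118 CPM against 1.203 and 1.523 CPM. Zbtb7b was the lower one (9.53 and 16.7 CPM against 9.02 and 7.06 CPM). Ikzf2, the largest by mean, overlapped between the labels (24.2 and 15.01 CPM against 24.1 and 25.9 CPM). The part of these cells in the Fosl1 values was not tested.

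Fosl2, which encodes FRA-2, was the FOS family gene with the most counts. It had 478 and 591 counts in the WT-labelled pair and 342 and 481 in the KO-labelled pair, or 36.7 and 34.8 CPM against 25.7 and 33.3 CPM. Both libraries labelled KO were lower, but replicate 2 by little. The log2 fold change was −0.28 (SE 0.18, adjusted p = 0.565 by edgeR), with 95% limits of −0.69 and 0.14. Left-out libraries moved it between −0.47 and −0.10 without turning its sign.

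Fos, the founding member and a classical immediate-early gene, was scarce at 24 h. It had 48 and 59 counts against 46 and 60, or 3.69 and 3.47 CPM in the WT-labelled pair and 3.46 and 4.15 CPM in the KO-labelled pair. The labels overlapped and the log2 fold change was 0.09 (SE 0.27), with 95% limits of −0.55 and 0.73. Fosb, whose transcript is likewise induced early after stimulation, varied more within a label than between the labels. It was counted 75 and 40 times in the WT-labelled pair and 19 and 68 in the KO-labelled pair, or 5.76 and 2.36 CPM against 1.43 and 4.71 CPM. The replicates differed 2.45-fold and 3.30-fold, and the log2 fold change of −0.37 (SE 0.61) had 95% limits from −1.83 to 1.08. The lowest Fosb count, 19 in labelled KO replicate 1, had a Poisson interval of 11.4 to 29.7, below the interval of 52.8 to 86.2 of the other library of its label. The Fosb value turned to 0.40 without labelled WT replicate 1 and to 0.23 without labelled KO replicate 1, and was −1.48 without labelled KO replicate 2.

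The JUN family supplied most AP-1 transcript per length, and none of its 3 genes passed the test. Jund, the family member usually expressed without stimulation, had 4815 and 6420 counts in the WT-labelled pair and 5643 and 4801 in the KO-labelled pair, or 370 and 378 CPM against 424 and 332 CPM. The 2 libraries labelled KO stood on either side of those labelled WT. The log2 fold change was 0.02 (SE 0.14), with 95% limits of −0.31 and 0.35. Junb, which encodes a JUN partner of BATF, was measured at 226 and 250 CPM in the WT-labelled pair and 216 and 201 CPM in the KO-labelled pair. Both libraries labelled KO were lower, with a log2 fold change of −0.19 (SE 0.11, adjusted p = 0.525 by edgeR) and 95% limits of −0.45 and 0.07. Jun, the classical partner of FOS, stood at 71.4 and 50.6 CPM in the WT-labelled pair and 55.3 and 60.4 CPM in the KO-labelled pair. Both libraries labelled KO fell between the libraries labelled WT, which differed 1.41-fold. The log2 fold change of −0.07 (SE 0.19) turned to 0.20 when labelled WT replicate 1 was left out.

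Overlapping genes were also read for the JUN family. Jund, on chromosome 8 from 70698949 to 70700616, shares 877 of its 1668 exon bases with Gm11175 on the opposite strand, which held 22 to 35 counts per library. Junb, on chromosome 8 from 84974484 to 84978718, shares 173 exon bases with Prdx2, a peroxiredoxin gene on the opposite strand, whose log2 fold change was −0.14 (SE 0.17). Jun, on chromosome 4 from 95049034 to 95052222, shares 232 exon bases with the antisense gene Junos, which held 0 to 6 counts per library. Gm11175 and Junos were thus far below the JUN genes that they overlap. Prdx2 was closer to Junb in level, at 88.2 and 119 CPM in the WT-labelled pair and 102 and 86.3 CPM in the KO-labelled pair. The part of opposite-strand reads in the JUN values was not tested.

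The promoter of Jun is given because JUN proteins are known to act on their own gene and because it was the 1 promoter of those found for the members that held an AP-1 type motif. RefSeq promoters (build GRCm38.p6, 250 bases before to 50 bases after the start) were found for 9 of the 10 members, all but Fosl1. Capitals mark the motif TGACATCA in the Jun promoter, chr4:95052173-95052472, reverse strand, printed 5′ to 3′.
Jun: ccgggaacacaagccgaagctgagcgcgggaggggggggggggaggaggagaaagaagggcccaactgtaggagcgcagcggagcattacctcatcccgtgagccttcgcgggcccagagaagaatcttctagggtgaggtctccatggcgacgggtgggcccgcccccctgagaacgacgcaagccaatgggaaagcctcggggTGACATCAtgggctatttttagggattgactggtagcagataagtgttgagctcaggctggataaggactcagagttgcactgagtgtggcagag
On both strands, TGACATCA was found in 1 of the 9 member promoters and in 3.62% of 32851 promoters of the same length. The AP-1 consensus TGACTCA was found in 0 of the 9 and in 5.2% of all promoters. The cyclic AMP element TGACGTCA was found in 0 of the 9 and in 1.79% of all, and the CArG box, which binds serum response factor, in 0 of the 9 and in 1.63%. The Jun motif overlapped no other motif searched. Sequence outside this window was not searched, so a motif not found here may lie further from the start. These letters in this window are a description of sequence, and binding was not measured.

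Batf had 628 and 877 counts in the WT-labelled pair and 918 and 701 in the KO-labelled pair, or 48.3 and 51.6 CPM against 69.0 and 48.5 CPM. Replicate 1 labelled KO was the high library, and replicate 2 lay among those labelled WT. The log2 fold change was 0.23 (SE 0.19, adjusted p = 0.657 by edgeR), and it was −0.04 without labelled KO replicate 1. Batf3, a relative best known as a factor of cross-presenting dendritic cells and also induced in activated T cells, showed the same order of libraries at a lower level. It had 89 and 172 counts in the WT-labelled pair and 216 and 143 in the KO-labelled pair, or 6.84 and 10.1 CPM against 16.2 and 9.90 CPM. The labels overlapped, with labelled KO replicate 2 just under labelled WT replicate 2. On the log2 scale the difference was 0.61 (SE 0.30), with 95% limits of −0.10 and 1.32, an unadjusted p of 0.0799 and an adjusted p of 0.45 by edgeR. Without labelled KO replicate 1 it was 0.22.

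Because Batf3 marks dendritic cells, their other markers were read beside it. The sum of 7 dendritic cell genes was 11.4 and 12.2 CPM in the WT-labelled pair and 7.07 and 11.9 CPM in the KO-labelled pair, and most of it was Zbtb46 (4.51 to 7.82 CPM) and Itgax (2.41 to 5.65 CPM). Xcr1 and Clec9a, which define cross-presenting dendritic cells, did not exceed 0.235 and 0.0752 CPM, and Cd209a was at 0 in all 4 libraries. The part of dendritic cells in the Batf3 values was not tested.

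Bach1 differed little between the labels, with 17.4 and 14.01 CPM in the WT-labelled pair and 17.6 and 19.0 CPM in the KO-labelled pair. Both libraries labelled KO were above the higher library labelled WT, each by less than the libraries labelled WT differed from each other. The log2 fold change was 0.22 (SE 0.18, adjusted p = 0.659 by edgeR), with 95% limits of −0.20 and 0.64. With 1 library left out at a time it ran from 0.07 to 0.39.

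**Figure D2:**
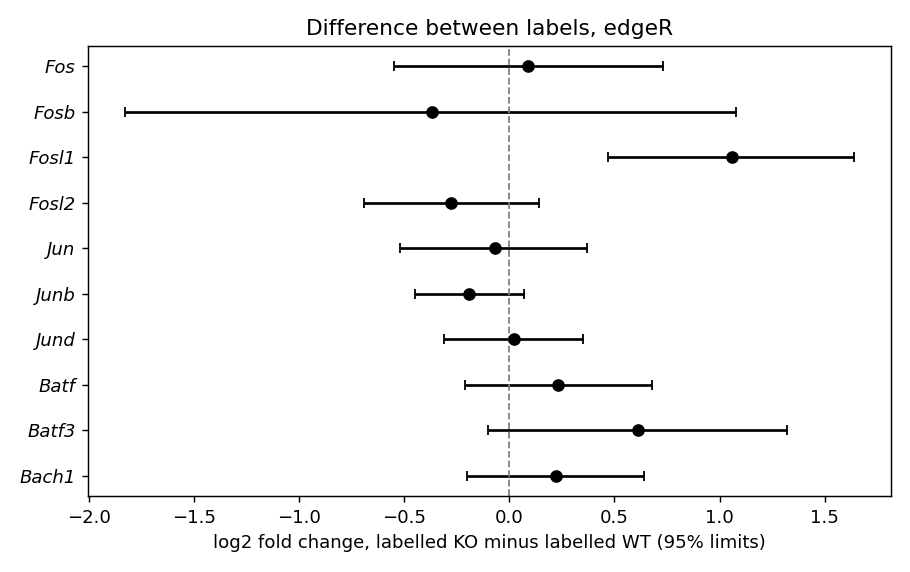
Log2 fold change of each member, labelled KO minus labelled WT, with 95% limits from edgeR (2 libraries per label) and a dashed line at 0. The limits of Fosl1 (0.47 to 1.64) exclude 0 before adjustment, those of the other 9 members include it, and Fosb has the widest limits (−1.83 to 1.08).

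These limits show what 4 libraries could resolve. The upper limit exceeded a doubling, a log2 fold change of 1, in 3 members, Fosl1, Fosb and Batf3. For Jund and Junb the limits stayed within −0.45 and 0.35.

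**Figure D3:**
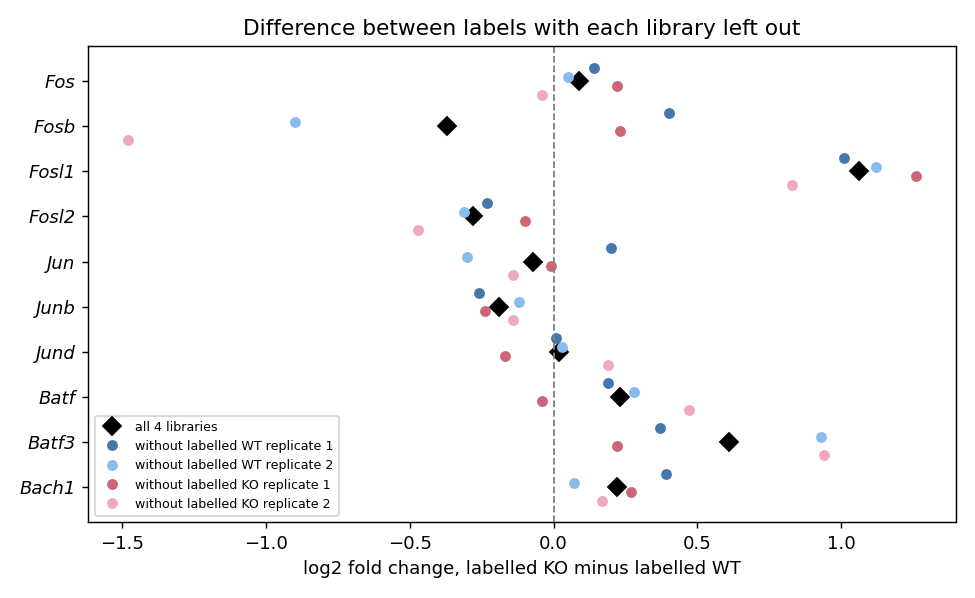
Log2 fold change of each member, labelled KO minus labelled WT, with all 4 libraries (black diamonds) and with each library left out in turn (circles). Fosl1 stays between 0.83 and 1.26, while Fosb runs from −1.48 to 0.40 and crosses 0.

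Levels of different genes were compared per length with the deposited FPKM, in which counts are divided by the length of the gene and the total of the library. Jund was highest, at 203 to 253 FPKM over the 4 libraries, followed by Junb (88.8 to 107), Batf (32.6 to 46.1) and Jun (15.6 to 22.5). The ranges of these 4 did not overlap, and the steps between their means were 2.33-fold, 2.65-fold and 1.96-fold. Jun stood 5.05-fold above the next gene, Fosl1. Fosl1 (2.30 to 5.82 FPKM), Batf3 (2.15 to 5.05), Fosl2 (2.20 to 3.18) and Bach1 (1.97 to 2.76) overlapped, so their order was not resolved. Fos (0.899 to 1.11) and Fosb (0.0858 to 0.350) were lowest and separate.

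The gene lengths behind these FPKM set part of that order. For Junb, Batf, Jun and Jund the length implied by count and FPKM equalled the summed length of all annotated transcripts of the gene. In Junb, Jun and Jund that sum is also the length of the exon sequence, so Batf alone separates them (1487 against 1406 bases). In 7 of the 10 members the implied length exceeded the longest transcript. Relative to exon sequence, the implied length was largest for Fosb, at 16525 bases against 6243 bases of exon sequence, 2.65-fold. For Fosl1 it was 1707 bases, below the longest transcript (1864 bases) and the exon sequence (2033 bases) of GENCODE M21. With CPM per kilobase of exon sequence instead, Batf3 moved from place 6 to 5, Fosl2 from 7 to 6 and Fosl1 from 5 to 7, and the other 7 members kept their places.

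Shares within the FOS family are given as a description, since neither Fosl1 nor Fosl2 passed the test. Fosl1 made up 33.9% and 38.0% of the summed FOS family FPKM in the WT-labelled pair and 56.8% and 57.4% in the KO-labelled pair. Fosl2 made up 46.7% and 45.8% against 29.8% and 28.8%. The leading FOS transcript per length was Fosl2 in both libraries labelled WT and Fosl1 in both labelled KO. Mean Fosl1 shares were 35.9% ± 2.91 against 57.1% ± 0.392 (SD, n = 2 each), a difference of 21.2 percentage points. Shares of a sum move together, so the lower Fosl2 share is not a separate measurement, and 2 against 2 libraries allow no p below 0.333 by an exact permutation test. Per kilobase of exon sequence the Fosl1 share was 23.5% and 27.7% in the WT-labelled pair and 44.9% and 44.6% in the KO-labelled pair. On that scale Fosl2 still led in both libraries labelled WT, at 46.2% and 47.7%, and Fosl1 in both labelled KO, where Fosl2 had 33.6% and 32.0%.

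**Figure D4:**
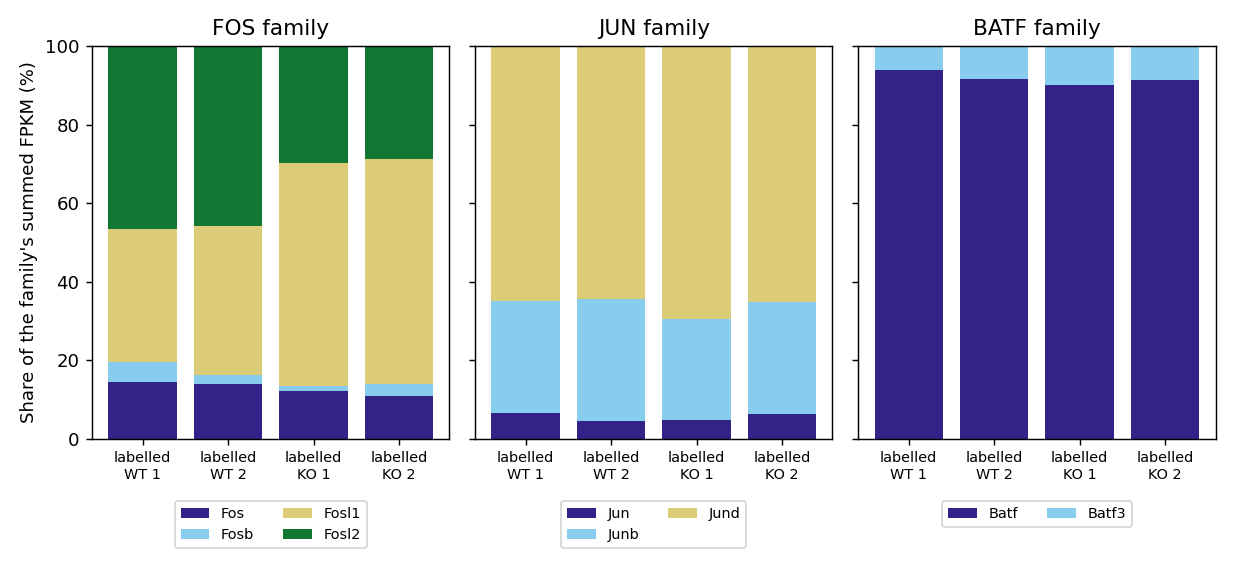
Share of each gene in the summed deposited FPKM of its family (%), as stacked bars for each of the 4 libraries, in the FOS, JUN and BATF families. The Fosl1 share of the FOS family goes from 33.9% and 38.0% in the WT-labelled pair to 56.8% and 57.4% in the KO-labelled pair, while JUN and BATF shares differ by under 3 percentage points between the label means.

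In the JUN and BATF families the shares differed by at most 2.75 percentage points between the label means. Both libraries labelled KO were still lower in the Junb and Batf shares and higher in the Jund and Batf3 shares. Jund made up 64.8% and 64.5% of JUN family FPKM in the WT-labelled pair and 69.6% and 65.2% in the KO-labelled pair, and Batf made up 90.1% to 93.8% of the BATF pair. Summed JUN transcript exceeded summed FOS transcript 50.5-fold and 53.7-fold in the WT-labelled pair and 49.1-fold and 30.7-fold in the KO-labelled pair. It exceeded the BATF pair 9.89-fold and 9.27-fold against 7.10-fold and 8.55-fold. In these activated cells at 24 h, BATF transcript per length therefore stood above FOS transcript, by 3.59-fold to 6.92-fold over the 4 libraries.

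The genes most like a member across the 4 libraries were sought among 8127 genes of at least 4 in mean log2 CPM, by the distance between centred log2 CPM. For Fosl1 they were Dusp6, a phosphatase of ERK that ERK signalling itself induces, at a distance of 0.154, Ube2q2, a ubiquitin-conjugating enzyme, at 0.169 and Eea1, an early endosome tether, at 0.181. Dusp6 stood at 12.2 and 13.0 CPM against 20.9 and 26.2 CPM, and it did not pass either (adjusted p = 0.126 by edgeR). For Batf3 they were Socs2, a cytokine signalling inhibitor, at 0.16, Pdf, a peptide deformylase, at 0.22 and Socs1, another such inhibitor, at 0.256. Socs2 stood at 11.8 and 16.8 CPM in the WT-labelled pair and 29.8 and 19.0 CPM in the KO-labelled pair, again highest in labelled KO replicate 1. With 4 libraries many genes share an order, and the distance is a description.

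Other genes of the pathway were read from 8 lists with 125 tested genes, among which 2 rose and none fell by edgeR, beside 0.207% of all genes. The lists were chosen with earlier results of these data known, so counts within them are a description. Of 6 IRF and NFAT partners, which bind beside AP-1 or BATF, Irf4 rose and 5 did not pass, with a median log2 fold change of 0.22. At an unadjusted p under 0.05 by edgeR, 2 were higher and 0 lower, where 12.9% of all genes tested had such a p. DESeq2 called 2 higher and 0 lower, where it called 2.05% of all genes. Irf4, the factor that binds with BATF and JUN at composite elements, stood at 451 and 390 CPM in the WT-labelled pair and 867 and 890 CPM in the KO-labelled pair (log2 fold change 1.06, SE 0.12, adjusted p = 0.0415 by edgeR). The adjusted p of Irf4 was 1.5e-11 by DESeq2. It did not pass by limma on log2(FPKM + 1) (adjusted p = 0.0838) or on log2(FPKM + 0.1) (0.0866), or by edgeR with a crossed pairing of replicates (0.0647). Fits with 1 library left out leave 1 library in a label, so for Irf4 they are read for size only and not as calls. In them, the log2 fold change of Irf4 ran from 0.96 to 1.18. The level of Irf4 separated the labels, as did 44.9% of all genes tested, while that of Batf overlapped between them.

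None of 10 tested relatives of the FOS, JUN, BATF and BACH genes passed by edgeR, with 3 higher and 2 lower at an unadjusted p under 0.05, 1 higher by DESeq2, and a median of −0.04. Over all genes tested the shares were 12.9% at that unadjusted p and 2.05% by DESeq2. Atf3, a stress-induced AP-1 partner, stood at 18.1 and 21.8 CPM against 32.6 and 34.5 CPM (adjusted p = 0.154 by edgeR). Jdp2, a repressor that pairs with JUN, stood at 4.76 and 5.48 CPM against 2.63 and 1.18 CPM (adjusted p = 0.233). In both the labels did not overlap, as in 44.9% of all genes tested.

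Of 22 tested AP-1 and BATF target genes of T cells, 1 rose and 21 did not pass by edgeR, with 14 log2 fold changes above 0, 8 below and a median of 0.29. Before adjustment, p was under 0.05 for 6 higher and 5 lower genes, where 12.9% of all genes tested had such a p. DESeq2 called 3 higher and 2 lower, where it called 2.05% of all genes. This list was chosen with earlier results of these data known, so its counts beside these shares are a description only. The 1 that rose was Il2ra, which encodes the alpha chain CD25 of the interleukin 2 receptor, at 523 and 508 CPM in the WT-labelled pair and 983 and 937 CPM in the KO-labelled pair (log2 fold change 0.90, SE 0.11, adjusted p = 0.0488 by edgeR). The adjusted p of Il2ra was 1.5e-10 by DESeq2. It did not pass by edgeR with upper quartile scaling (adjusted p = 0.0525) or with a crossed pairing of replicates (0.0761). Nor did it pass by limma on log2(FPKM + 1) (0.0809) or on log2(FPKM + 0.1) (0.0811). With 1 library left out, which leaves 1 library in a label and is read for size only and not as a call, the log2 fold change of Il2ra ran from 0.86 to 0.94. Ctla4, an inhibitory receptor, stood at 190 and 154 CPM against 110 and 107 CPM (adjusted p = 0.123). None of 14 tested BACH1 target genes passed by edgeR or DESeq2, with 1 higher and 2 lower at an unadjusted p under 0.05, 10 of 14 log2 fold changes below 0, and a median of −0.23. Over all genes tested 12.9% had such a p and 48.1% a log2 fold change above 0. Among them Gclc, a subunit of the enzyme that starts glutathione synthesis, stood at 51.9 and 49.8 CPM against 63.0 and 65.2 CPM, with an adjusted p of 0.345 by edgeR. Nqo1, a quinone reductase, stood near the limit of detection at 0.999 and 0.942 CPM against 0.301 and 0.208 CPM (log2 fold change −1.90, SE 0.54, adjusted p = 0.242 by edgeR).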

How the data were processed

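RNA sequencing of 4 libraries was read from 1 table. Per the file headers, the authors deposited counts per gene and FPKM, and the counts are whole numbers. The labels name kallisto and GRCm38 with no version or role. The sources used here give neither strand use, filters nor the treatment of overlapping genes. Columns were joined to samples by description code, and 8 other value columns were not used. Titles call the replicates biological, so p values measure the spread between these libraries.

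After filterByExpr and TMM scaling, edgeR 4.0.16 in R 4.3.3 compared the labels by its two-sided quasi-likelihood test, with Benjamini-Hochberg adjustment over all 13528 genes tested and a threshold of 0.05. The biological coefficient of variation was 15.9%. DESeq2 1.42.0, limma 3.58.1 on log2(FPKM + 1) and log2(FPKM + 0.1), other scalings, no filter, a replicate block and each library left out were alternatives. The edgeR fit was tested on simulated data. GENCODE M21 gave exons and overlaps, and 9 of 10 members, all but Fosl1, lay at identical positions in it. In the lists, genes named were those called and the 1 with the smallest p per direction. Members and lists were chosen with earlier results of these data known.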

Additional observations from a re-analysis of the deposited data

How the results depend on the processing

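The number of members called was 0 in all 12 alternatives. Genes called over all genes numbered 28, and 146 with no filter, 277 by DESeq2, 5 on log2(FPKM + 1), 4 on log2(FPKM + 0.1) and 8 to 304 with single libraries left out, where 1 label's spread rests on the pair of the other. List genes called numbered 2, and 1 with upper quartile scaling, 4 with no filter, 13 by DESeq2, 0 on either FPKM scale and 0 to 10 with single libraries left out. With the replicate block, 123 genes, 0 members and 5 list genes were called. Deviations of the 2 labels correlated at −0.168 by number, and a crossed pairing, added after seeing the data, gave 12, 0 and 1. With 1 library left out, signs turned for Fos (range −0.04 to 0.22), Fosb (−1.48 to 0.40), Jun (−0.30 to 0.20), Jund (−0.17 to 0.19) and Batf (−0.04 to 0.47). The other 5 members kept theirs in all 12 alternatives. The difference in Fosl1 share was 19.2 points per kilobase of exon sequence. The cause of these shifts was not tested. Low counts limit Fos, Fosb and Fosl1.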

Other observations

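Genes on the routes that lead to AP-1 are given here beside the shares over all genes tested, which were 12.9% at an unadjusted p under 0.05 and 2.05% by DESeq2. Of 24 tested genes of MAP kinase and T cell receptor signalling, none passed by edgeR, with 2 higher and 4 lower at an unadjusted p under 0.05, 0 higher and 1 lower by DESeq2, and a median log2 fold change of 0.09. Map3k5, which encodes the stress kinase ASK1 upstream of JNK and p38, stood at 40.6 and 44.7 CPM in the WT-labelled pair and 26.8 and 28.2 CPM in the KO-labelled pair (adjusted p = 0.177). Mapk14, which encodes p38 alpha, stood at 71.5 and 54.4 CPM against 74.4 and 127 CPM, its highest value in labelled KO replicate 2 alone.

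Of 9 tested regulators of immediate-early genes of the SRF and TCF kind, none passed by edgeR, with 0 higher and 2 lower at an unadjusted p under 0.05, 1 lower by DESeq2, and a median of −0.10. Elk3, a partner of SRF, stood at 32.0 and 26.0 CPM against 12.9 and 17.3 CPM (adjusted p = 0.154), and Srf itself at 132 and 144 CPM against 172 and 143 CPM. Of 23 other immediate-early genes, none passed by edgeR, with 4 higher and 4 lower at an unadjusted p under 0.05, 2 higher and 1 lower by DESeq2, beside the same 12.9% and 2.05% of all genes, and a median of 0.04. Nr4a3, an orphan nuclear receptor, stood at 92.3 and 59.2 CPM against 192 and 338 CPM (adjusted p = 0.0883). Klf2, a factor of quiescent T cells, stood at 30.7 and 27.6 CPM against 14.9 and 18.2 CPM (adjusted p = 0.146). Of 17 tested ATF, CREB and C/EBP factors, none passed by edgeR or DESeq2, with 1 higher and 0 lower at an unadjusted p under 0.05 and a median of 0.16.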
